A study of Mus musculus with 24 samples.

Results

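The miRNAs described here are the detected mouse miRNAs with numbers from miR-6896 to miR-7094, a stretch of the miRNA catalogue that is rich in mirtrons. They were the array's miRNAs with a number in this range that the deposited detection call marked as present on at least 1 of 24 arrays. This rule found 76 members among the 400 mature miRNAs of that range on the array, which carried 1881 mouse miRNAs in all, of which 448 were detected on any array. The members were thus selected on their detection calls, so counts of detection below describe them and were not tested.

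Total RNA came from tetraploid hepatocytes of male C57BL/6J mice aged 3 months that were fed freely, lived on a reversed light-dark cycle and received no treatment. Live liver cells lacking CD45 (leukocytes) and CD31 (endothelium) were sorted on a pericentral surface protein (CD73) and a periportal one (E-cadherin). This gave 8 populations of 50000 cells in each of 3 mice, from zone 1 (most pericentral) to zone 8 (most periportal), with 3 arrays per zone and 1 mouse per replicate number. Each mouse filled 1 slide with its 8 arrays, which means that mouse and slide cannot be told apart. On every slide zones 1 to 4 lay in slide row 1 and zones 5 to 8 in slide row 2, so these sides of the lobule and the slide rows cannot be told apart either.

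Most miRNAs are cut from a long primary transcript by Drosha and then from the hairpin by Dicer. A mirtron is instead a short intron that is spliced out, opened by debranching and folded into a hairpin that Dicer can cut, so it needs no Drosha. The intron's end, the AG of the splice acceptor, becomes the end of the hairpin, and the 2 arms of the hairpin can give a 5p and a 3p miRNA. Levels of mirtron miRNAs follow transcription and splicing of the host gene as well as Dicer cutting and turnover, and none of these was measured here.

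Hairpin ends and gene positions were taken from the sequences. RefSeq (GRCm38.p6) held a mature sequence for 67 of the 76 members and a hairpin for 66, and the others are named only. Of the 181 hairpins in this range with an arm on the array, 168 (92.8%) ended in AG, with a median length of 66 bases. Of the 754 hairpins of the array's other miRNAs, 66 (8.75%) did, with a median length of 83 bases. The RefSeq gene bounds placed 56 of the 66 members with a hairpin inside a protein-coding gene on the same strand and 10 in none. Exons and introns were not used here. Hairpins are shown for miR-7036a, miR-7047 and miR-6934. With scaled signals and no mouse term, miR-7036a was called lower toward the portal side in every zone comparison, though not under all alternatives. miR-7047 was the only precursor with a 5p arm on all arrays and a 3p arm on 6 or more. miR-6934 had both arms on 6 or more arrays. Capitals mark the mature arms.
Mir7036: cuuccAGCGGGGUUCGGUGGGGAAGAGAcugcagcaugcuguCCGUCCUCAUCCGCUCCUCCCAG
Mir7047: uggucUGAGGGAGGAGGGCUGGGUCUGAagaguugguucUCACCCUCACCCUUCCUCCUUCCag
Mir6934: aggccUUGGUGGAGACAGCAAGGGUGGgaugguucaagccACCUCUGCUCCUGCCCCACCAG

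In GRCm38.p6 the hairpin of miR-7036a lies at chr5:137296624-137296688 on the minus strand, within Srrt, which encodes a cap-binding partner in RNA processing. The hairpin of miR-7047 lies at chr7:24987604-24987667 (minus strand), and that of miR-6934 at chr11:119154076-119154137 (minus strand), both outside any protein-coding gene of their strand in this table. Mature sequences of some members named below follow, with the seed (bases 2 to 8, the part that pairs with targets) in capitals. Not all of them passed a zone or mouse comparison.
miR-7036a-5p: aGCGGGGUucgguggggaagaga
miR-7011-5p: aGGAGGAUgggagagggaggugu
miR-6898-5p: uGUAAGGGgagaugcagggagc
miR-6998-5p: cUGGGCAGagggcaaagugacu
miR-7047-5p: uGAGGGAGgagggcugggucuga
miR-6965-5p: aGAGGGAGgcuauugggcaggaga
miR-6976-3p: aUCUCCCUcccaacuccccag
miR-7047-3p: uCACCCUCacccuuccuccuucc

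The 5p members were rich in G and the 3p members rich in C. The 49 detected 5p members with a sequence had a median of 50.0% G and 10.5% C, and 41 of them (83.7%) held a run of GGG. The 128 undetected 5p miRNAs of the range had a median of 42.3% G, and the 73 detected 5p miRNAs numbered below 1000 had 27.3%. The 18 detected 3p members with a sequence had a median of 11.3% G and 50.0% C, none held GGG, and 11 ended in AG. miR-7047-5p and miR-6965-5p had the same seed, GAGGGAG. No other pair of members shared a seed, whereas miR-6921-5p had the seed of miR-423-5p (GAGGGGC) and miR-7008-5p that of miR-705 (GUGGGAG).

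Detection differed between the arms. Of the 201 5p miRNAs of the range on the array 56 (27.9%) were detected, and of the 199 3p miRNAs 20 (10.1%). Among miRNAs numbered below 1000, 86 of 364 5p (23.6%) and 106 of 374 3p (28.3%) were detected. Of the members, 30 were detected on all 24 arrays, and 29 of these were 5p arms. The exception was miR-6976-3p, whose hairpin lies within Srf, the gene of serum response factor. Another 24 members were detected on 6 to 23 arrays (12 of each arm) and 22 on 1 to 5 arrays (15 5p and 7 3p).

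The members nearest to the limit of the rule were the 12 that a single array detected, with signals as deposited of 1.79 to 3.78, against 0.1 for any undetected miRNA. Of these 12 detections, 0 were in mouse 1, 5 in mouse 2 and 7 in mouse 3, and 11 were in zones 5 to 8. Most of the 12 came from 2 arrays. The zone 5 array of mouse 3 alone detected miR-6945-5p, miR-6957-5p, miR-7032-5p, miR-7040-5p and miR-7085-5p. The zone 6 array of mouse 2 alone detected miR-6924-3p, miR-6962-3p, miR-6980-3p, miR-7011-3p and miR-7034-3p.

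These 2 arrays stood apart in opposite arms. The zone 5 array of mouse 3 detected 54 of the 56 5p members, where no other array detected more than 47, and 12 of the 20 3p members. The zone 6 array of mouse 2 detected 19 of the 20 3p members, where no other array detected more than 13, and 34 of the 5p members. The first array also detected 302 miRNAs that are no members (median of the other arrays 251, highest 281), and the second 272 (highest of the others 302). Without the first array 71 members remained, without the second 71, and without both 66. The part of these arrays in the zone results is given below as values without them.

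**Figure D1:**
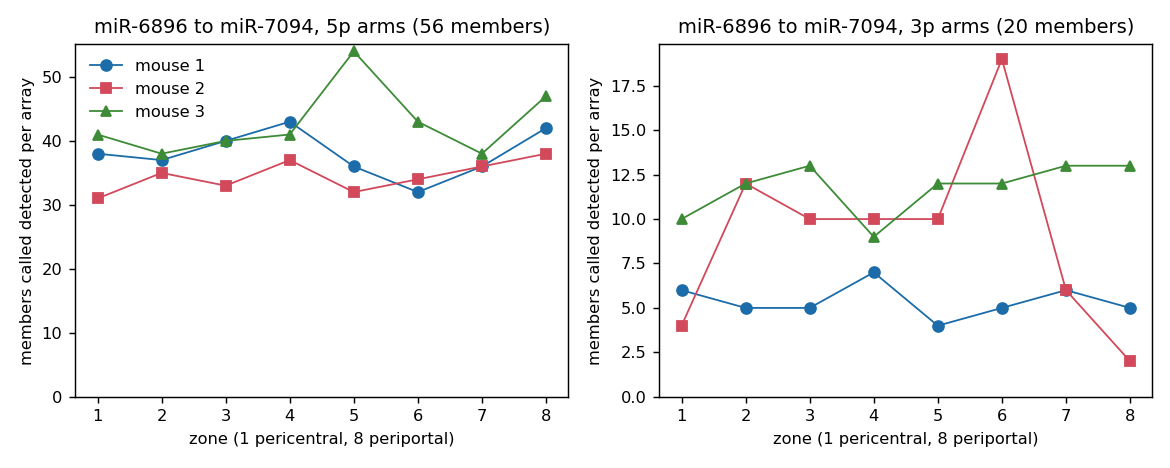
Number of members called detected on each array (vertical axis, from 0) by zone (horizontal axis, 1 pericentral to 8 periportal), with 5p members on the left and 3p members on the right and 1 line per mouse. The zone 5 array of mouse 3 reaches 54 5p members, and the zone 6 array of mouse 2 reaches 19 3p members.

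Over all arrays 35 to 66 members were detected per array (median 47). Arrays of zones 1 to 4 detected 46.4 ± 4.98 (SD, n = 12) and those of zones 5 to 8 detected 47.9 ± 9.09 (SD, n = 12), or 46.3 ± 7.43 without the zone 5 array of mouse 3. The median was 43, 42.5 and 52 members per array in mice 1, 2 and 3. For all detected miRNAs it was 268.5, 297 and 309.5 per array. The members' median share of the detected miRNAs was thus 16.0%, 14.6% and 17.0% in mice 1, 2 and 3. The arms differed by mouse as well. Arrays of mouse 1 detected 4 to 7 3p members, those of mouse 2 detected 2 to 19 and those of mouse 3 detected 9 to 13. The 22 members on 1 to 5 arrays had 43 detections, 9 in zones 1 to 4 and 34 in zones 5 to 8, and 19 of the 34 were on the 2 arrays named above.

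Signals were low for most members. Together they held 0.542% to 1.25% of the summed signal of an array, with 0.843 ± 0.199% (SD, n = 12) in zones 1 to 4 and 0.793 ± 0.207% (SD, n = 12) in zones 5 to 8. Relative to the signal of miRNAs numbered below 1000 the members stood at 3.48 ± 0.681% and 2.45 ± 0.482% (SD, n = 12 each). The deposited error of a signal had a median of 13.3% for detected members, against 10.7% for other detected miRNAs. A probe's signal per molecule differs between miRNAs, so signals of different miRNAs or arms do not rank their amounts.

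The total detected signal of an array was 57773 to 138147, and 248 to 368 miRNAs were detected per array. The 5 miRNAs fixed as hepatocyte markers were detected on all 24 arrays (summed signal 5810 to 21341 per array). Of the markers of other liver cells, 0 of 5 leukocyte and Kupffer, 0 of 5 stellate and fibroblast and 0 of 2 erythroid miRNAs were detected on any array. Of the endothelial pair miR-126a-3p was detected, on 16 arrays, and of 5 biliary miRNAs miR-200b-3p was detected, on 1 array.

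For comparisons, signals were scaled by the 75th percentile of each array over the 198 miRNAs detected on all arrays, raised to a floor of 1.12 and taken to log2. A signal below is scaled unless it is named as deposited. The 5 members with the highest mean signals were all 5p arms, and none passed along the zones as scaled here and without a mouse term. miR-7047-5p measured 87.0 to 131 (median 98.1) in zones 1 to 4 and 72.5 to 125 (median 95.4) in zones 5 to 8. Its fitted change from zone 1 to zone 8 was -0.12 ± 0.14 (SE, log2; limma adjusted p = 0.640). miR-7042-5p measured 48.0 to 114 (median 72.0) and 39.3 to 137 (median 66.5) in the same zones. miR-6997-5p, whose hairpin lies in the spectrin gene Sptan1, measured 32.6 to 84.2 (median 49.3) and 30.8 to 77.9 (median 43.5). miR-6969-5p measured 28.6 to 85.3 (median 45.5) and 21.3 to 74.8 (median 39.7), and miR-6995-5p 34.4 to 53.7 (median 42.3) and 22.98 to 45.4 (median 35.9). The slope of miR-6995-5p had a limma adjusted p of 0.0682, and of 0.0464 when the 198 miRNAs on all arrays were tested alone. It was also called lower in zones 5 to 8 when signals were scaled by their sum. The ranges of the 2 sides of the lobule overlapped for each of the 5.

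To ask which members vary along the axis between the central and the portal vein, each miRNA detected on at least 6 arrays was fitted with a slope on the zone number, a rank and not a distance. Of the 76 members 54 passed this filter and 22 did not. Of the 54, 3 were lower and 1 was higher toward the portal side (limma, adjusted p under 0.05). Over all 339 miRNAs tested 22 (6.49%) were lower and 35 (10.3%) higher. The 3 lower members were miR-7036a-5p, miR-7011-5p and miR-6898-5p, all detected on all 24 arrays, and the higher one was miR-6998-5p. The latter passed the filter mainly through zones 5 to 8, the side of its call, so that call is no independent support. At an unadjusted p under 0.05 (limma) there were 6 lower and 2 higher members, against 45 lower and 52 higher of all 339 tested miRNAs. The same 4 members were called without the zone 5 array of mouse 3 and without the zone 6 array of mouse 2.

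miR-7036a-5p gave scaled signals of 10.9 to 19.1 (median 13.3) in zones 1 to 4 and 7.39 to 12.9 (median 9.68) in zones 5 to 8. The zone 5 arrays of mice 1 and 3, at 12.9 and 12.8, lay within the range of zones 1 to 4, and all 9 arrays of zones 6 to 8 lay below that range, at 7.39 to 10.4. By zone it was 12.01, 16.3 and 13.05 in zone 1 of mice 1, 2 and 3 and 8.90, 7.98 and 9.53 in zone 8. The slope was -0.10 ± 0.02 (SE) log2 per zone, or -0.70 ± 0.16 over the axis, a ratio of 0.615 (limma adjusted p = 0.00264). It was negative in each mouse, at -0.08, -0.15 and -0.06 per zone in mice 1, 2 and 3.

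miR-7011-5p, from a hairpin within the semaphorin gene Sema4a, measured 10.2 to 20.7 (median 13.7) in zones 1 to 4 and 7.41 to 14.0 (median 9.57) in zones 5 to 8. These ranges overlapped, and in zone 8 the 3 mice were at 11.4, 8.75 and 8.71, below their zone 1 values of 14.0, 15.6 and 13.5. The fitted change was -0.69 ± 0.19 (SE, log2) over the axis (adjusted p = 0.0107 in limma). It was no longer called without mouse 2 (adjusted p = 0.0564) or without mouse 3 (0.0649).

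miR-6898-5p, within Kansl3 (a subunit of a histone acetyltransferase complex), measured 20.04 to 25.6 (median 23.6) in zones 1 to 4 and 15.3 to 24.2 (median 19.5) in zones 5 to 8. Its fitted change was -0.40 ± 0.12 (SE, log2) over the axis (limma adjusted p = 0.0260). Mouse 1 had the steepest slope, at -0.11 per zone against -0.03 in mice 2 and 3. Without mouse 1 the adjusted p was 0.337.

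miR-6998-5p, from a hairpin within Fubp3 (which encodes a protein that binds single-stranded nucleic acid), was detected on 8 arrays. In zones 1 to 4 it was detected on 1 of 12, the zone 4 array of mouse 1, at 2.89. In zones 5 to 8 it was detected on 7 of 12, at 1.85 to 5.86 (median 3.11), among them all 3 arrays of zone 8 at 3.61, 3.11 and 2.73. The fitted slope was 0.19 ± 0.06 (SE) log2 per zone (limma adjusted p = 0.0260), with the other 16 arrays at the floor. With a floor 4 times lower it was 0.46, so its size is set by the floor. It entered the test mainly through arrays of zones 5 to 8. The call was lost without any 1 mouse, with adjusted p of 0.0643, 0.124 and 0.110 without mice 1, 2 and 3.

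**Figure D2:**
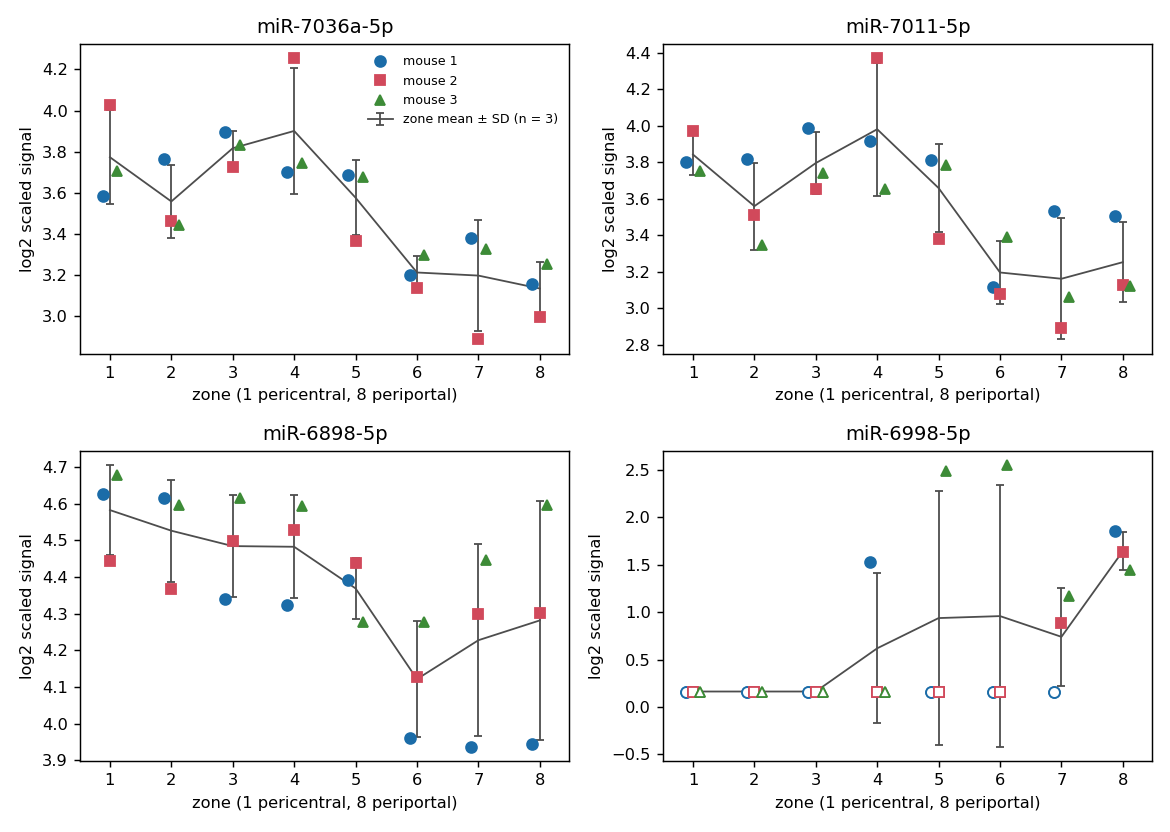
Scaled log2 signal (vertical axes) by zone (horizontal axes) of the 4 members with a called slope, with points for the 3 mice, open points for arrays without detection set at the floor, and the zone mean ± SD (n = 3). miR-7036a-5p and miR-7011-5p lie lower in zones 6 to 8 than in most arrays of zones 1 to 4, and miR-6998-5p is detected on 1 array of zones 1 to 4 and 7 of zones 5 to 8.

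The direct comparison of the 2 sides of the lobule, on the same arrays, called the same 4 members. Of the tested members 3 were lower and 1 was higher in zones 5 to 8 than in zones 1 to 4, where 7.67% of all tested miRNAs were lower and 11.5% higher. The log2 difference was -0.48 ± 0.10 (SE) for miR-7036a-5p, -0.48 ± 0.12 for miR-7011-5p and -0.27 ± 0.08 for miR-6898-5p (limma adjusted p = 8.8e-04, 0.00394 and 0.0179). miR-6998-5p differed by 0.79 ± 0.28 (adjusted p = 0.0485 in limma), and without the zone 5 array of mouse 3 by 0.66 (adjusted p = 0.0816). Since it reached the filter through 7 arrays of zones 5 to 8 and 1 of zones 1 to 4, its p cannot serve as support for the difference. Between the ends of the axis, zone 8 against zone 1, 1 member was lower (0.59% of all tested) and 0 were higher (4.72% of all tested; limma). At an unadjusted p under 0.05 (limma), 2 members were higher, against 40 of all 339 tested miRNAs. The lower one was miR-7036a-5p, at -0.64 ± 0.18 (SE, log2; limma adjusted p = 0.0461). That call was lost without the zone 5 array of mouse 3 (0.0530) or the zone 6 array of mouse 2 (0.0614), which enter through the estimate of the spread.

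The lower calls depended on the scaling. With signals as deposited, miR-7036a-5p measured 9.91 to 15.4 (median 13.1) in zones 1 to 4 and 7.72 to 17.1 (median 9.48) in zones 5 to 8. Its fitted change was then -0.47 (limma adjusted p = 0.162), that of miR-7011-5p was -0.46 (0.220) and that of miR-6898-5p was -0.17 (0.843). miR-6998-5p kept its call without scaling (limma adjusted p = 0.0334), but it passed the filter mainly through zones 5 to 8. Over all tested miRNAs the median change over the axis was -0.10 scaled and 0.10 without scaling. The calls over all tested miRNAs went from 35 higher and 22 lower to 36 higher and 3 lower, and those of the members from 1 and 3 to 1 and 0. In the comparison of zones 5 to 8 with zones 1 to 4, miR-7036a-5p was still lower without scaling (-0.38, adjusted p = 0.0487 in limma).

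**Figure D3:**
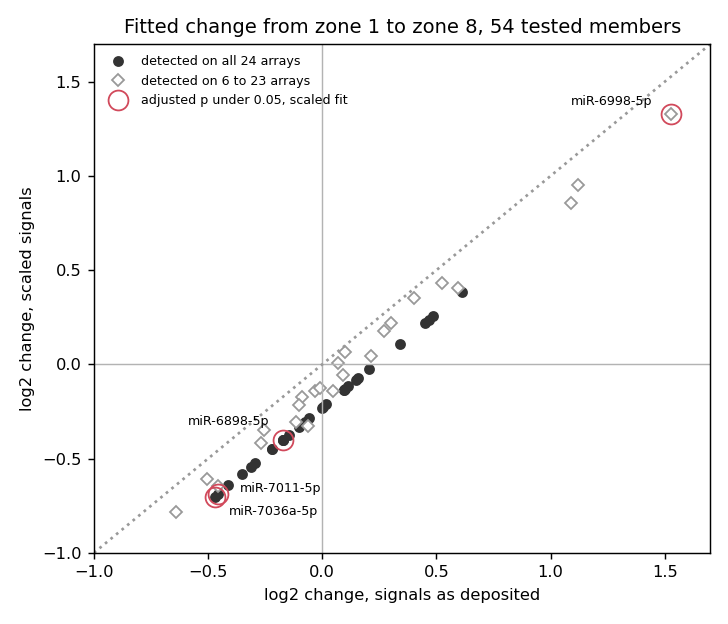
Fitted log2 change from zone 1 to zone 8 of the 54 tested members with signals as deposited (horizontal axis) against scaled signals (vertical axis), with filled points for members on all 24 arrays, open diamonds for those on 6 to 23, red rings for the 4 called slopes and a dotted line of equality. All 54 points lie below the line, and the 3 lower members keep a negative value on both axes.

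With the mouse as a block, which the pairing of zones within an animal allows, more members passed. On the slope 11 were lower (20.4% of the 54, against 16.5% of all tested) and 2 higher (3.7% against 14.5%; limma). The 11 were miR-6898-5p, miR-6908-5p, miR-6965-5p, miR-6973b-5p, miR-6995-5p, miR-6997-5p, miR-7011-5p, miR-7036a-5p, miR-7050-5p, miR-7058-5p and miR-7082-5p. All were 5p arms detected on all 24 arrays, with fitted changes from -0.29 to -0.70. The higher members were miR-6998-5p, which passed the filter mainly through zones 5 to 8, and miR-7009-5p, within the annexin gene Anxa5. Between zones 5 to 8 and zones 1 to 4 the blocked fit called 11 lower (16.8% of all tested) and 1 higher (14.2%), and 8 of the 11 were also lower on the slope. Between zones 8 and 1 it called 2 lower (2.06%) and 0 higher (7.67%). In that comparison 3 members, and 50 of all 339 tested miRNAs, were higher at an unadjusted p under 0.05 (limma). With the slide row added to the mouse block, which leaves only changes within zones 1 to 4 and within zones 5 to 8, no miRNA was called (limma; 19 of 339 higher and 18 lower at an unadjusted p under 0.05). The slope of miR-7036a-5p was then -0.03 ± 0.05 (SE) per zone (adjusted p = 0.796).

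Among the members without a called slope, the largest positive values belonged to miR-7009-5p, miR-6939-5p, miR-7067-3p and miR-7014-5p. miR-7009-5p was detected on 9 arrays of zones 1 to 4, at 1.46 to 2.04, and on 8 of zones 5 to 8, at 1.29 to 5.88, with 5.88, 3.12 and 3.02 in zone 8. Its fitted change was 0.95 ± 0.42 (SE, log2; limma adjusted p = 0.122, or 0.0473 with the mouse block). miR-6939-5p, within the kinase gene Akt1, had a fitted change of 0.86 ± 0.50 (limma adjusted p = 0.277), with its highest values in mouse 1, 9.85 in zone 4 and 15.2 in zone 8. miR-7067-3p (0.43 ± 0.49, adjusted p = 0.608) and miR-7014-5p (0.40 ± 0.64, adjusted p = 0.731) were detected on 9 and 15 arrays (limma). The largest negative values outside the calls were those of miR-6968-3p (-0.78 ± 0.61, limma adjusted p = 0.414), miR-7022-3p (-0.65 ± 0.37, 0.269) and miR-7020-5p (-0.64 ± 0.54, 0.459). The value of miR-7022-3p rested on mouse 2, whose zone 8 array did not detect it, since the slope without that mouse was 0.01 per zone.

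As a description, 38 of the 54 tested members (70.4%) had a negative slope, against 56.9% of all tested miRNAs, with a median fitted change of -0.16 against -0.10. Of the 30 members on all arrays 25 (83.3%) did, against 65.2% of all 198 such miRNAs, with medians of -0.26 and -0.19. With signals as deposited 16 of the 30 had a negative slope, with a median of -0.03. The slope was negative in all 3 mice for 21 of the 54 and positive in all 3 for 5. No such count over all tested miRNAs is given here, so it is not read as a trait of the members. The 174 tested miRNAs numbered below 1000 had 30 higher and 8 lower calls and a median fitted change of 0.06. The 70 numbered from 1000 and below miR-6000 had 4 and 9 (median -0.21), and the 41 with other higher numbers had 0 and 2 (median -0.19; limma).

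Other miRNAs known to come from introns or to be made without Drosha were listed for comparison, namely miR-877, miR-1224 and miR-702 with both arms, miR-320-3p and miR-484. Of these 8, 6 were detected and 5 tested. None was higher and 2 of 5 were lower (22 of 339, or 6.49%, over all tested miRNAs, and 3 of 339 without scaling) toward the portal side in limma, miR-1224-5p by -0.43 ± 0.15 (SE, log2; adjusted p = 0.0485) and miR-320-3p by -0.67 ± 0.21 (adjusted p = 0.0257). The other 3, miR-877-5p, miR-877-3p and miR-702-3p, had fitted changes of 0.13, -0.19 and -0.31 that did not pass.

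Of the members detected on 3 or more arrays, miR-6999-5p and miR-6952-5p were seen in zones 5 to 8 alone. miR-6999-5p, within the diacylglycerol kinase gene Dgkz, was detected on 5 arrays, all of zones 5 to 8: zones 5, 6 and 8 of mouse 3 (2.24, 2.04 and 1.65) and zone 8 of mice 1 and 2 (2.27 and 2.88). It was thus detected in zone 8 of all 3 mice. miR-6952-5p was detected on 3 arrays, zones 5, 6 and 8 of mouse 3, at 1.47 to 1.52. Both were below the 6 arrays needed for the test.

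Both arms were rarely detected. Of 198 precursors of the range with both arms on the array, 70 had an arm detected and 5 of these (7.14%) had both, against 27 of 140 (19.3%) among miRNAs numbered below 1000. miR-7047-5p was on all 24 arrays at 72.5 to 131 (median 95.8). Its partner miR-7047-3p was on 8, of which 7 were of mouse 2 (2.39 to 11.1) and 1 of mouse 3 (2.15), with none of mouse 1. miR-6934-5p was on 13 arrays (4, 1 and 8 in mice 1, 2 and 3) at 1.96 to 3.35, and miR-6934-3p on 11 (1, 3 and 7) at 2.38 to 5.10. The 2 arms of miR-6934 were detected together on 7 arrays.

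The other 3 such precursors had 1 arm on most arrays and the other on few. miR-7011-5p was on all arrays and miR-7011-3p on the zone 6 array of mouse 2 alone, at 1.93. miR-7046-3p, from a hairpin within Rabac1 (a Rab-binding membrane protein), was on 18 arrays at 1.58 to 3.32, and miR-7046-5p on 2, zones 5 and 8 of mouse 3. miR-7085-3p, within the glucose-6-phosphate transporter gene Slc37a4, was on 23 arrays at 2.29 to 6.84, and miR-7085-5p on the zone 5 array of mouse 3 alone, at 2.82. The zone slope of the log2 ratio of 5p to 3p on an array could be fitted for miR-6934 (-0.10 ± 0.09 SE per zone, limma adjusted p = 0.524) and miR-7047 (-0.02 ± 0.10, adjusted p = 0.870). Neither passed, where 4 of 31 precursors (12.9%) rose and 1 (3.23%) fell, and arrays without detection of an arm entered at the floor.

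Most members differed between the mice. With 1 mean per zone in the model, 37 of the 54 tested members (68.5%) differed between the 3 mice (limma moderated F test, adjusted p under 0.05), against 54.3% of all tested miRNAs. The size of this gap depended on the scaling. Counts were 43 of 54 and 260 of 339 with signals as deposited, and 38 and 228 with summed signal. They were 39 and 226 with a percentile that leaves out the members, and 37 and 189 with quantile scaling. The 37 include members that passed the filter mainly through the mice where they are high, so the filter partly set their difference. Among these are miR-6923-3p, miR-6943-3p, miR-7047-3p, miR-7052-3p and miR-7056-5p. With the filter on all 24 arrays, which no member passes through 1 mouse alone, 20 of 30 members and 108 of 198 miRNAs differed. Of the 54, 20, 19 and 25 differed when mouse 1, 2 or 3 was left out, against 117, 97 and 125 of all 339 tested miRNAs. Of the 37, 20 had their lowest mean in mouse 2, 12 in mouse 1 and 5 in mouse 3. The range between the highest and lowest mouse mean was 0.40 to 2.04 log2 (median 0.95) among the 37. In 44 of the 54 tested members this range exceeded the size of the fitted change over the zones, a count not set against all tested miRNAs.

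miR-6965-5p, within the cyclin gene Ccnf, had the highest F (57.1, limma adjusted p = 5.1e-07). It measured 14.0 to 17.3 (median 16.1) in mouse 1, 17.7 to 25.8 (median 23.2) in mouse 2 and 9.29 to 12.4 (median 11.7) in mouse 3. As scaled, the 3 mice did not overlap on any array, which was not counted over all tested miRNAs. As deposited, mouse 1 (12.45 to 17.1) and mouse 3 (11.5 to 14.9) overlapped, and mouse 2 measured 17.9 to 24.6. The seed of miR-6965-5p is that of miR-7047-5p, which did not pass between mice (limma adjusted p = 0.214). The latter had medians of 91.2, 94.4 and 97.0 in mice 1, 2 and 3.

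miR-6997-5p was highest in mouse 3, at 58.0 to 84.2 (median 78.7), against 31.4 to 50.1 (median 39.3) in mouse 1 and 30.8 to 81.0 (median 45.7) in mouse 2. The zone 1 array of mouse 2 reached the range of mouse 3, and the difference was lost without mouse 3 (limma adjusted p = 0.161). The next 3 by F were lowest in mouse 2. miR-7020-5p, within Aldh4a1 (an enzyme of proline breakdown), measured 22.3 to 42.7 (median 35.8), 5.66 to 23.1 (median 9.09) and 12.7 to 39.7 (median 24.2) in mice 1, 2 and 3. miR-7002-5p, within the intron-binding helicase gene Aqr, measured 9.75 to 15.6 (median 13.1), 4.19 to 9.99 (median 5.47) and 8.82 to 13.6 (median 11.7). miR-7045-5p, within the chromatin remodeller gene Chd4, measured 6.86 to 11.4 (median 9.67), 2.28 to 8.59 (median 3.42) and 5.75 to 10.99 (median 7.65). Their F values were 38.7, 34.5 and 29.0, and none of these 3 passed when mouse 2 was left out (limma adjusted p = 0.0640, 0.302 and 0.0612).

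Of the 13 tested 3p members, 5 were not detected on any array of mouse 1, a group picked out after its values were seen. miR-6923-3p was on 0, 5 and 8 arrays of mice 1, 2 and 3, miR-6943-3p on 0, 6 and 8, and miR-7047-3p on 0, 7 and 1. miR-7052-3p was on 0, 1 and 6, and miR-7067-3p on 0, 3 and 6. These 5 passed the filter through mice 2 and 3 alone, so their differences between mice are given as a description. miR-6976-3p was on all 8 arrays of each mouse.

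**Figure D4:**
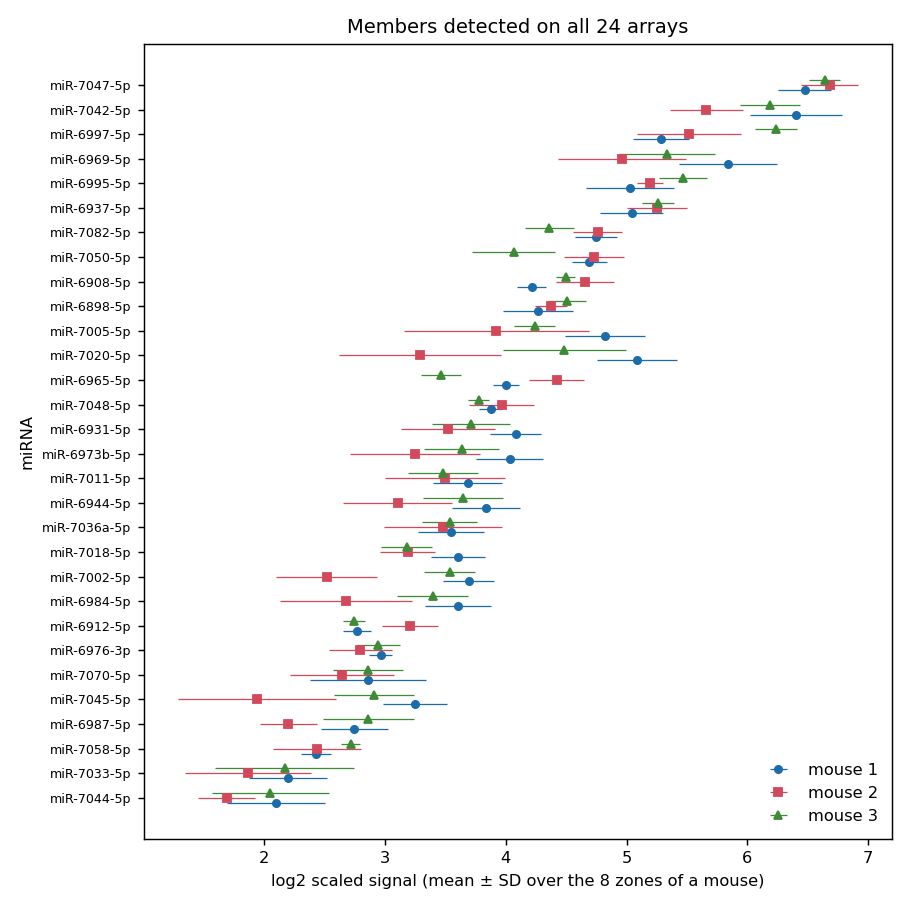
Scaled log2 signal (horizontal axis) of the 30 members detected on all 24 arrays (rows, ordered by mean), as the mean ± SD over the 8 zones of each mouse. The means of miR-6965-5p are 4.00, 4.42 and 3.47 in mice 1, 2 and 3, and those of miR-7020-5p, miR-7002-5p and miR-7045-5p are lowest in mouse 2.

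Whether the zone slope itself differed between mice was tested by the interaction of mouse and zone. None of the 54 tested members passed (limma), and 3 of all 339 (0.885%) did. At an unadjusted p under 0.05, 8 members and 61 of all 339 tested miRNAs did. When the 198 miRNAs on all arrays were tested alone, 15 of them passed, among them 5 of the 30 members.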

How the data were processed

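RNA was labelled with Cy3 and hybridised to 1-colour Agilent miRNA arrays, and, per the submitters' processing notes, the scans went through Agilent Feature Extraction. Its version is not given in the sources used here. Each deposited signal is a total intensity of 1 miRNA on a linear scale, with its error and a detection call of 0 or 1, per the file headers. The headers record no background handling and no scaling between arrays. Control spots were left out. Signals were divided by the 75th percentile of each array over the 198 miRNAs detected on all arrays, raised to a floor of 1.12 and log2 transformed. Tests covered the 339 miRNAs with detection on 6 or more arrays and were run with limma 3.58.1 (R 4.3.3) and Benjamini-Hochberg adjustment, on the same 24 arrays in every zone comparison. The number of arrays limits the precision. The slope test was checked on simulated data with independent noise, no floor and planted slopes of 0.2 log2 per zone. That check does not cover smaller slopes, members at the floor or effects of slide row.

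Replicate numbers mark mice. Over all tested miRNAs, deviations from zone means correlated within a mouse (median 0.610, lowest 0.254), so the numbers pair the samples. Over the tested members alone the median was 0.513 and the lowest -0.03. The members and lists were chosen with earlier results of these data known. Named members were those called along the zones, the 5 with the highest mean signal, the 5 largest and 5 most negative slopes, the 5 with the largest F over mice, the precursors with both arms detected, and those seen in zones 1 to 4 or in zones 5 to 8 alone on at least 3 arrays. Other members are named where a count of 5 or fewer or a listing of calls needed it, and were chosen after their values were seen.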

Additional observations from a re-analysis of the deposited data

How the results depend on the processing

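Alternatives were run for the slopes of the members called, the most extreme and the highest in signal, the other zone calls, the 5 largest F over mice and both arm ratios. Of these values 282 kept direction and call, 45 lost the call, 4 gained it (miR-6995-5p, also with the filter on all arrays, and miR-6997-5p and miR-7009-5p, with the block) and 16 turned direction; the cause of these changes was not tested unless given. Members higher on the slope numbered 1, and 0 with quantile scaling, 0 with the filter on all arrays and 0 without any 1 mouse (range 0 to 0), and 2 at a minimum of 1 array. All higher miRNAs numbered 35, and under those settings 31, 24 of 198, 24 to 30 and 37 of 448. Members lower on the slope numbered 3, and 0 without scaling or with summed signal, and 2 to 3 without 1 mouse; all lower miRNAs numbered 22, and 3 and 6 under those scalings and 9 to 25 without 1 mouse. In zone 8 against zone 1 the higher count was 1 at a minimum of 1 array and 0 to 1 without a mouse. Over all miRNAs it was 18 of 448 and 11 to 13 of 339. The lower count there was 0 without scaling, with summed signal and with a percentile that leaves out the members, and 0 to 1 without a mouse. Over all 339 miRNAs these lower counts were 0, 0, 1 and 0 to 1. Zones 5 to 8 against zones 1 to 4 gave 0 higher members under no scaling and under summed signal (32 and 40 over all). Quantile scaling and the percentile without members also gave 0 (29 and 35 over all). So did the filters on all arrays (25 of 198) and on at least 1 array (38 of 448). Without a mouse the higher count was 0 to 1 (31 to 35 over all). Lower members numbered 1 under no scaling and 1 under summed signal (8 and 13 of 339 over all). Mouse differences numbered 20 with the filter on all arrays, which tests fewer miRNAs (108 of 198 over all), and 19 to 25 without 1 mouse (97 to 125 of 339 over all). The mouse by zone count was 1 with summed signal, 5 with the filter on all arrays, 4 at a minimum of 1 array, and 0 to 1 without a mouse. Over all miRNAs it was 4 of 339, 15 of 198, 23 of 448 and 0 to 4 of 339. The arm ratio was lower for 1 of 5 member precursors at a minimum of 1 array, and for 4 of 45 precursors over all.

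With the mouse as replicate block, the pairing gave 2 higher and 11 lower members on the slope (56 lower over all miRNAs), 2 lower between zones 8 and 1, and 11 lower between zones 5 to 8 and 1 to 4. With the block and slide row together the slope gave 0 higher and 0 lower members, and 0 and 0 over all. Under that fit the slopes of miR-7020-5p, miR-6969-5p, miR-7042-5p and miR-7047-5p turned to 0.0208, 0.109, 0.0750 and 0.000444 and the arm ratio slope of miR-6934 to 0.289. Slide row could not be fitted for the other zone comparisons, nor the block for the mouse tests.

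The slope of miR-7042-5p (-0.00343) turned to 0.0294 without scaling, 0.0206 with summed signal and 0.00507 without the zone 6 array of mouse 2, and ranged from -0.0218 to 0.0259 without 1 mouse. That of miR-7047-5p (-0.0168) turned to 0.0160 without scaling and 0.00727 with summed signal, and ranged from -0.0324 to 0.00898 without 1 mouse. Direction also turned for miR-7022-3p without mouse 2 (range -0.155 to 0.0150 without 1 mouse), miR-7067-3p without mouse 3 (range -0.00273 to 0.0956) and the arm ratio of miR-7047 without scaling (0.00596) and without mouse 1 (range -0.0510 to 0.00711). Leaving out the zone 5 array of mouse 3 or the zone 6 array of mouse 2 was chosen after seeing the data. It left 1 higher and 3 lower members on the slope, 0 lower in zone 8 against zone 1 under either, and without the first 0 higher in zones 5 to 8. Over all 339 miRNAs the slope then gave 33 higher under either, and 21 and 19 lower. Zone 8 against zone 1 gave 1 lower under either, and zones 5 to 8 gave 36 higher without the first. With signal of miRNAs below 1000 as denominator the members' share was 3.48% and 2.45%. Low signals limit what can be tested, since 22 of 76 members were on too few arrays.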

Other observations

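Among the 38 tested 5p members with a sequence, the share of G correlated with the zone slope at r = -0.13, and among the 28 on all arrays at r = 0.12. These are correlations across miRNAs of the same 24 arrays, given as a description. Of the 30 members on all arrays, 17 had a negative slope in each of the 3 mice and 2 a positive one, without a matching count over all miRNAs.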
